A study of Mus musculus with 8 samples.

Results

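The cation-chloride cotransporters and the kinases that control them were followed in the mouse hippocampus as 9 genes of the 29442 in the deposited table. The group was chosen by gene symbol, with earlier results of these data known, and holds the importer Slc12a2, the exporters Slc12a4, Slc12a5 and Slc12a7, the kinases Wnk1, Wnk2 and Wnk3, and the kinases Stk39 and Oxsr1. Of these, Slc12a2 (NKCC1) was higher in the libraries labelled DHEA, at 157 ± 23.6 CPM (counts scaled by the TMM method; SD, n = 4) against 115 ± 5.23 CPM (n = 4) in the sesame oil libraries, a 1.37-fold difference. The groups did not overlap in TMM-scaled CPM, but HipR4, labelled DHEA, lay below HipR5, labelled sesame oil, when counts were divided by the library totals alone. For each of the other 8 genes the groups overlapped on both scales. Since the genes were chosen with results of this contrast known, their differences between the groups are a description. The number that pass a threshold is given only beside the share or the number over all genes.

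The RNA came from the hippocampus of female C57BL/6 J mice aged 6 to 8 weeks, and the methods place the dissection in its ventral part. Dehydroepiandrosterone (DHEA), an androgen precursor, was injected under the abdominal skin at 30 mg/kg/day for 21 days in 4 mice, and 4 mice received the sesame oil vehicle in the same way. All mice went through behavioural tests before dissection. The libraries are named by the mouse numbers of the labels, HipR3, HipR4, HipR7 and HipR11 for DHEA and HipR5, HipR9, HipR10 and HipR16 for sesame oil. The total counts were 35748416 to 38038361 with DHEA and 31483772 to 35418297 with sesame oil, so that every library labelled DHEA was the deeper. CPM divides counts by these totals after TMM scaling by edgeR, which raised the values of HipR3 and HipR4 to 1.02 and 1.03 times those from the totals alone and left the other 6 libraries at 0.982 to 0.999 times. Along the first principal component of 16813 genes, with 33.4% of the variance, HipR3 and HipR4 stood apart at 21.8 and 35.6, with the other 6 libraries at -12.7 to -3.62, so values of the 9 genes and of pathway genes past the threshold that move by over 1.5 times without them are also given without them. The gene table of the study runs in the opposite direction to these labels, and the groups are therefore called by their labels throughout. In what follows, "with DHEA" means in the libraries labelled DHEA, and rose and fell mean higher and lower there. Which of the directions belongs to the treatment cannot be told from the files. Every sign would turn if the labels were exchanged, so that Slc12a2 would then be lower with DHEA. The study reports that its qRT-PCR on additional hippocampal samples ran in the direction of its own sequencing results. Among the genes it measured, Pomc was reported as higher with DHEA, whereas under these labels its log2 fold change was -1.16 (standard error 0.48). The groups overlapped for Pomc, at 0.575 to 1.21 CPM with DHEA and 0.513 (HipR5) to 4.93 CPM (HipR10) with sesame oil. Pomc is also among the anterior pituitary markers given below, whose summed FPKM was highest in HipR10. The other genes measured by qRT-PCR are not reported here. A positive log2 fold change means a higher level in the libraries labelled DHEA.

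Cation-chloride cotransporters move chloride across the membrane together with sodium and potassium. NKCC1 loads cells with chloride and KCC2, the product of Slc12a5, extrudes it from mature neurons, so that their balance sets whether GABA-A receptors let chloride in or out of a neuron. WNK kinases sense chloride and cell volume and switch on SPAK (Stk39) and OSR1 (Oxsr1), which phosphorylate the cotransporters, activating NKCC1 and inhibiting the KCCs. NKCC1 is also made by cells other than neurons, among them choroid plexus epithelium and cells of the oligodendrocyte lineage.

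The start sites of the exporters bear on what a gene-level count adds up. Slc12a5 has a pair of annotated starts, for the transcripts known as KCC2a and KCC2b, and the count of Slc12a5 does not tell them apart. The 250 bases before each start were read from RefSeq on GRCm38.p6, a build other than the GRCm39 that the labels name for the counts. Promoter entries matched 8 of the 9 genes with 10 windows, and Slc12a2 was not among them. The windows before the 2 starts of Slc12a5 (plus strand, chr2:164960596-164960845 and chr2:164967738-164967987) and before 1 start of Slc12a7 (plus strand, chr13:73763447-73763696) are shown because the latter 2 of these 3 are the windows of the group that hold the E-box CACGTG, printed in capitals. This is a motif that the factor Usf1 binds.
Slc12a5, upstream start: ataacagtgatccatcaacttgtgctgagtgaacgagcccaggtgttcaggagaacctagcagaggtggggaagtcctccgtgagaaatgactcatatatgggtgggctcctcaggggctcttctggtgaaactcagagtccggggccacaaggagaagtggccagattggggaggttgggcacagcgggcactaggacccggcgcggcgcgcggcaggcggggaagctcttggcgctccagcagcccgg
Slc12a5, downstream start: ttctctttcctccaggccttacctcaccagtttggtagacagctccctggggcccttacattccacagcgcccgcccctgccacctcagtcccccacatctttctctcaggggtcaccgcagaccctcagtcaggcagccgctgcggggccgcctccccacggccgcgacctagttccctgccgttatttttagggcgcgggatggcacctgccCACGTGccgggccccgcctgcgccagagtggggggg
Slc12a7: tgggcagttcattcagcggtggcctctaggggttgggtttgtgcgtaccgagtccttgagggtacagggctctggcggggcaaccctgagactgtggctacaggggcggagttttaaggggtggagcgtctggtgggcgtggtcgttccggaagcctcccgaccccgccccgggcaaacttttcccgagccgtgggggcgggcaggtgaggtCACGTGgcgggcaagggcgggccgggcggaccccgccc
The first base of the E-box lay 36 bases before the downstream start of Slc12a5 and 38 bases before that of Slc12a7, whose other annotated window overlaps this one and ends inside the motif. On either strand, the E-box occurred in 2 of the 10 windows of the group and in 6.02% of 32851 windows of the same length over all genes. The Egr site GCGGGGGCG, which lies in 2.57% of all windows, was in 0 of the 10. The androgen receptor half-site AGAACA was in 0 of the 10 and in 16.1% of all windows, and the full element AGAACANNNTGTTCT, which contains the half-site, was in 0 of the 10 and in 0.00913% of all. These counts say only which letters are in these windows.

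The levels of different genes were compared as FPKM, counts scaled to the library total and to gene length, which the authors derived from the same counts. Slc12a5 had the highest FPKM of the 9 genes, 64.0 ± 4.45 (SD, n = 8), and lay above every other gene in each library. Below it came Wnk1 at 26.4 ± 1.33, Stk39 at 24.3 ± 4.93 and Slc12a2 at 20.1 ± 4.03, whose ranges over the 8 libraries overlapped from each to the next. Oxsr1 at 9.12 ± 0.675 and Wnk2 at 8.85 ± 1.07 overlapped each other and lay below Slc12a2. Slc12a4 at 5.63 ± 0.864 overlapped Wnk3 at 3.90 ± 0.219, and Slc12a7 was lowest at 1.38 ± 0.311 FPKM. These are levels in whole tissue, in which fewer cells of a type and less RNA per cell cannot be told apart.

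The chloride importer had the largest log2 fold change of the 9 genes with all 8 libraries and no covariate. Slc12a2 was at 173, 123, 159 and 173 CPM in HipR3, HipR4, HipR7 and HipR11, labelled DHEA, and at 122, 112, 113 and 110 CPM in HipR5, HipR9, HipR10 and HipR16, labelled sesame oil. HipR3, HipR7 and HipR11 stood well above all sesame oil libraries, while HipR4 exceeded HipR5 by only 0.760 CPM. Without TMM scaling this order turned, with HipR4 at 119 and HipR5 at 124 counts for each 1e+06 of the library total, and at 17.6 and 18.3 FPKM. The other DHEA libraries, at 161 to 175, were still above the sesame oil libraries. The log2 fold change was 0.46 with a standard error of 0.09. Leaving out HipR4 together with HipR3 gave 0.53, and over all 21 alternative fits the log2 fold change lay between 0.40 and 0.61.

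**Figure D1:**
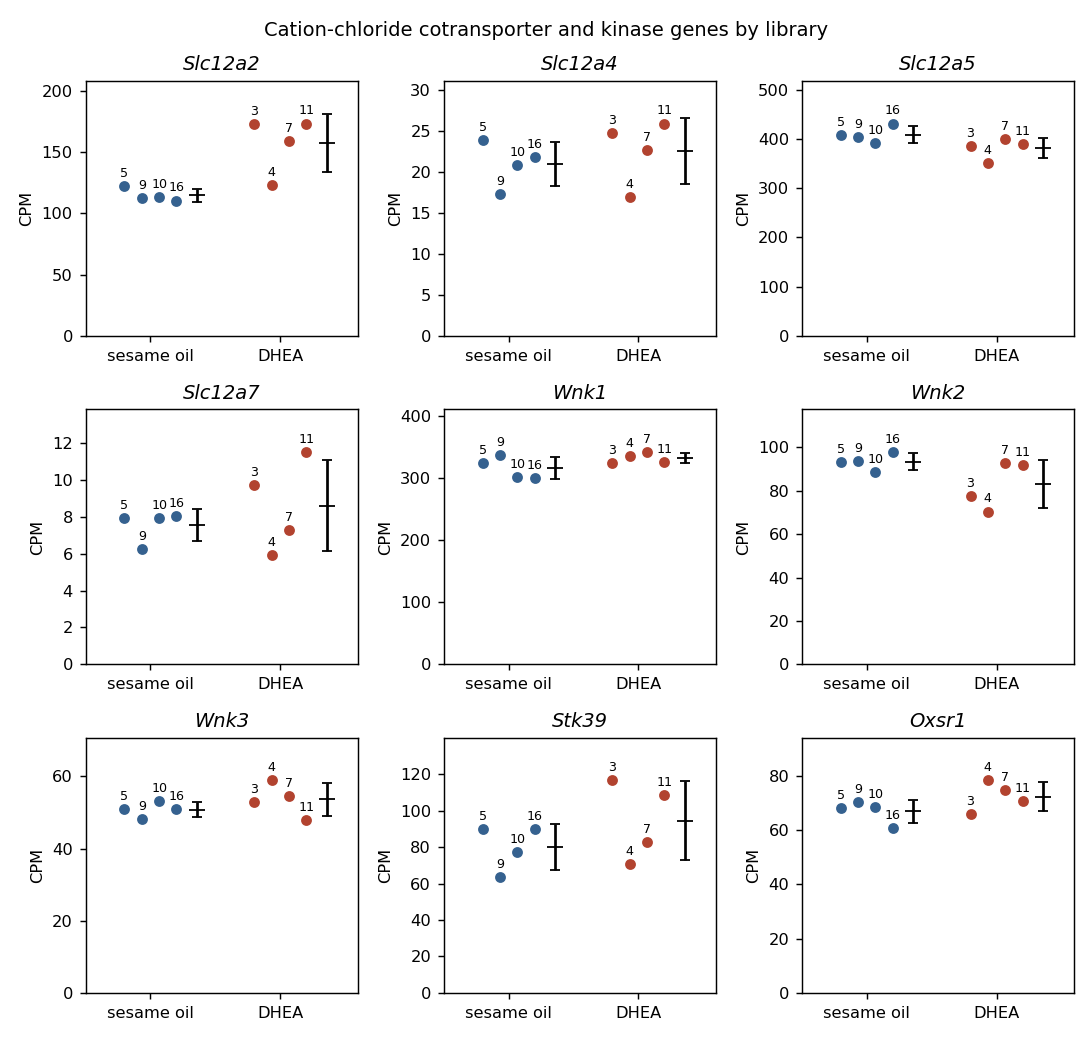
CPM (y axis, from 0) of each of the 9 genes in the 4 sesame oil libraries (blue) and the 4 DHEA libraries (red), numbered by mouse, with the mean and SD of each group in black. For Slc12a2 the DHEA points lie at 123 to 173 CPM and the sesame oil points at 110 to 122 CPM, a separation that HipR4 loses without TMM scaling, whereas the groups overlap in the other 8 panels.

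The neuronal exporter had a difference of the opposite sign, with overlapping groups. Slc12a5 was at 385, 351, 399 and 390 CPM with DHEA and at 409, 403, 392 and 431 CPM with sesame oil. HipR7 lay above HipR10, so the groups overlapped, and HipR4 was the lowest library. Its log2 fold change was -0.10 with a standard error of 0.06, and -0.06 without HipR3 and HipR4.

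The other exporters, which serve mainly in cell volume control, varied more between libraries than between groups. Slc12a4 (KCC1) was at 24.7, 16.9, 22.7 and 25.9 CPM with DHEA and at 23.8, 17.3, 20.9 and 21.8 CPM with sesame oil, a log2 fold change of 0.11 with a standard error of 0.12. Slc12a7 (KCC4) was at 9.69, 5.95, 7.27 and 11.5 CPM with DHEA and at 7.94, 6.23, 7.93 and 8.03 CPM with sesame oil, a log2 fold change of 0.19 with a standard error of 0.17. With 1 library left out the log2 fold change of Slc12a4 was 0.03 (without HipR9) to 0.21 (without HipR4), and that of Slc12a7 0.02 (without HipR11) to 0.33 (without HipR4). Without both HipR3 and HipR4 they were 0.21 and 0.31. In both genes HipR4 was lowest among the DHEA libraries and HipR9 lowest among the sesame oil libraries, and the groups overlapped.

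Among the WNK kinases, Wnk1 is the broadly expressed member. Wnk1 was at 324, 335, 342 and 326 CPM with DHEA and at 324, 337, 302 and 300 CPM with sesame oil, and its log2 fold change was 0.07 with a standard error of 0.06, or 0.04 without HipR16. The DHEA libraries lay within a narrow band that held HipR9, with HipR5 at its lower edge and HipR10 and HipR16 below it. Wnk2 was at 77.4, 70.4, 92.9 and 92.0 CPM with DHEA and at 93.3, 93.8, 88.7 and 97.8 CPM with sesame oil. HipR3 and HipR4 were below all other libraries and the other DHEA libraries were among the sesame oil libraries. The log2 fold change of Wnk2 was -0.17 with a standard error of 0.08, -0.10 without HipR4 and -0.02 when HipR3 and HipR4 were both left out. Wnk3, an X-linked kinase of neurons, was at 53.0, 58.8, 54.6 and 47.9 CPM with DHEA and at 50.9, 48.2, 53.1 and 50.8 CPM with sesame oil, with the highest and the lowest library both labelled DHEA. Its log2 fold change was 0.08 with a standard error of 0.07, 0.02 (without HipR4) to 0.13 (without HipR11) with 1 library left out, and 0.0073 without both HipR3 and HipR4.

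Of the kinases that act directly on the cotransporters, Stk39 (SPAK) varied widely. It was at 117, 70.6, 82.6 and 108 CPM with DHEA and at 90.0, 63.3, 77.4 and 89.7 CPM with sesame oil. HipR3 and HipR11 were above every sesame oil library, and HipR4 was below all of these but HipR9. The log2 fold change was 0.24 with a standard error of 0.13, and 0.12 (without HipR3) to 0.35 (without HipR4) with 1 library left out. Oxsr1 (OSR1) was at 65.7, 78.2, 74.6 and 70.5 CPM with DHEA and at 68.1, 70.3, 68.5 and 60.6 CPM with sesame oil, a log2 fold change of 0.11 with a standard error of 0.07, or 0.06 without either HipR4 or HipR16. Here HipR4 was the highest library, the reverse of its place for Stk39.

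**Figure D2:**
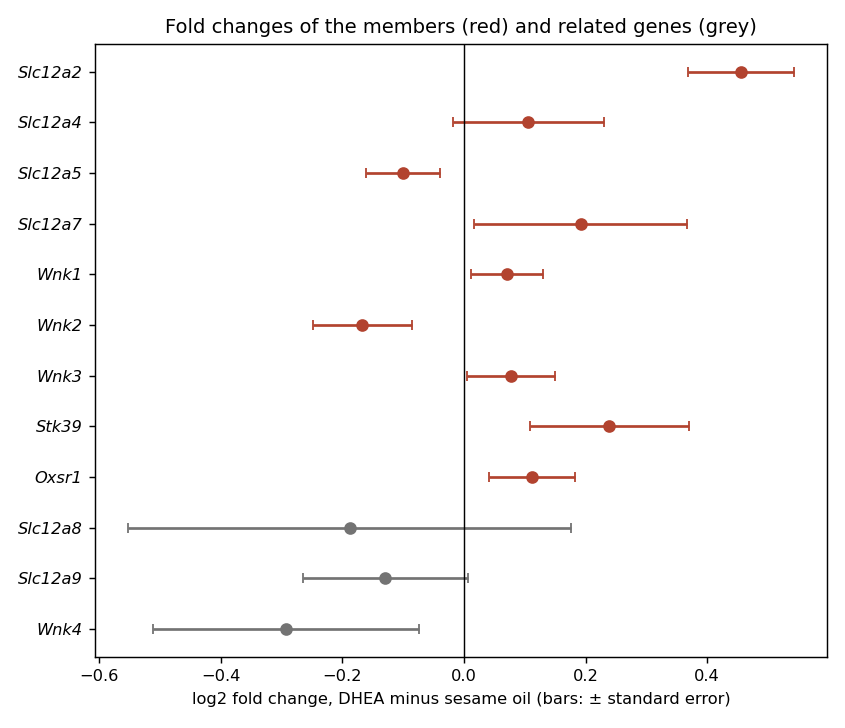
Log2 fold change, DHEA minus sesame oil (x axis, points, with bars of ± 1 standard error), of the 9 genes in red and of 3 related genes in grey, from edgeR. Slc12a2 lies at 0.46, with a bar that just reaches that of Stk39, and the other genes lie between -0.29 and 0.24; Slc12a1 and Slc12a3 are left out because no library had more than 8 counts of either.

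By count, 7 of the 9 genes had a higher and 2 a lower level in the libraries labelled DHEA, and their median log2 fold change was 0.11, against 0.0079 over all 27612 genes tested. edgeR's quasi-likelihood test gave an unadjusted p under 0.05 for 1 of the 9, Slc12a2, beside 9.31% of all genes tested. Among the 12780 abundant genes, meaning those whose counts averaged 100 or more over the 8 libraries, this share was 15.7%, with 8.08% higher and 7.6% lower with DHEA. The groups did not overlap in 1 of the 9, beside 8.46% of the abundant genes, and with counts over the library totals alone in 0 of the 9, beside 9.07%. After Benjamini-Hochberg adjustment over all genes 0 of the 9 had an adjusted p under 0.05 in edgeR, beside 0% of all genes, and 1 of the 9, Slc12a2, had one in DESeq2, beside 1.21% of the genes to which DESeq2 gave an adjusted p. With the thresholds of the study, which ask for a fold of 2 or more besides the unadjusted p, 0 of the 9 were called, beside 1.6% of all genes. The genes were chosen with this contrast in view, and nothing is read from these counts.

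The ratio of importer to exporter gives the same pair of genes within each library. The FPKM of Slc12a2 divided by that of Slc12a5 was 0.410, 0.320, 0.364 and 0.406 in HipR3, HipR4, HipR7 and HipR11 and 0.273, 0.255, 0.263 and 0.234 in HipR5, HipR9, HipR10 and HipR16. The lowest DHEA library, HipR4, lay above the highest sesame oil library, HipR5, by more than the range of the sesame oil libraries. The means were 0.375 ± 0.0423 (SD, n = 4) and 0.256 ± 0.0167 (SD, n = 4), and the log2 ratio differed by 0.54. Most of this difference came from Slc12a2. On the scale of log2(FPKM + 1) the log2 fold change was 0.40 for Slc12a2 and -0.13 for Slc12a5. The ratio is of RNA in whole tissue and does not say whether both genes were in the same cells.

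**Figure D3:**
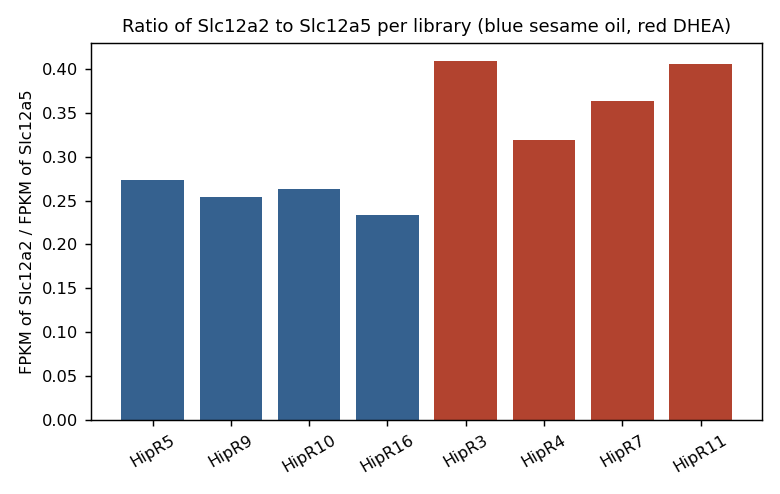
FPKM of Slc12a2 divided by FPKM of Slc12a5 (y axis, from 0), 1 bar per library, sesame oil in blue and DHEA in red. The bars reach 0.234 to 0.273 with sesame oil and 0.320 to 0.410 with DHEA.

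Markers of other cell types moved with some of these genes. The markers of choroid plexus, the epithelium that makes cerebrospinal fluid and borders the hippocampus, varied widely between libraries. The summed FPKM of its 7 markers, of which Ttr was the most abundant, was 3101, 52.8, 1569 and 2985 in HipR3, HipR4, HipR7 and HipR11 and 2258, 355, 1446 and 1596 in HipR5, HipR9, HipR10 and HipR16. All 7 were higher with DHEA, with a median log2 fold change of 0.44, and 0 of 7 had an unadjusted p under 0.05 in edgeR. HipR4 and HipR9 had the least of it, and these were also the lowest 2 of the 8 libraries for Slc12a4, Slc12a7 and Stk39. This was so for 3 of the 9 genes, beside 3.94% of the abundant genes, a pattern noticed after the values were seen. Of the 59 other pathway genes it held for 5, which were Cab39l, Sgk1, Lrrc8c, Slc4a2 and Slc4a10. For Slc12a2 it did not hold, since HipR9, HipR10 and HipR16 were all below HipR4. Within the DHEA libraries, though, Slc12a2 and the summed markers were both lowest in HipR4, next in HipR7 and highest in HipR3 and HipR11. Within the sesame oil libraries both were highest in HipR5, while HipR16 was lowest for Slc12a2 and HipR9 for the markers. Without HipR4 and HipR9 the log2 fold changes were 0.54 for Slc12a2, 0.25 for Stk39, 0.24 for Slc12a7 and 0.13 for Slc12a4, and those of the 7 choroid plexus markers themselves were 0.41 to 0.65. With the mean of the choroid plexus markers as a covariate the log2 fold change of Slc12a2 was 0.44, with a standard error of 0.06 against 0.09 without it.

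**Figure D4:**
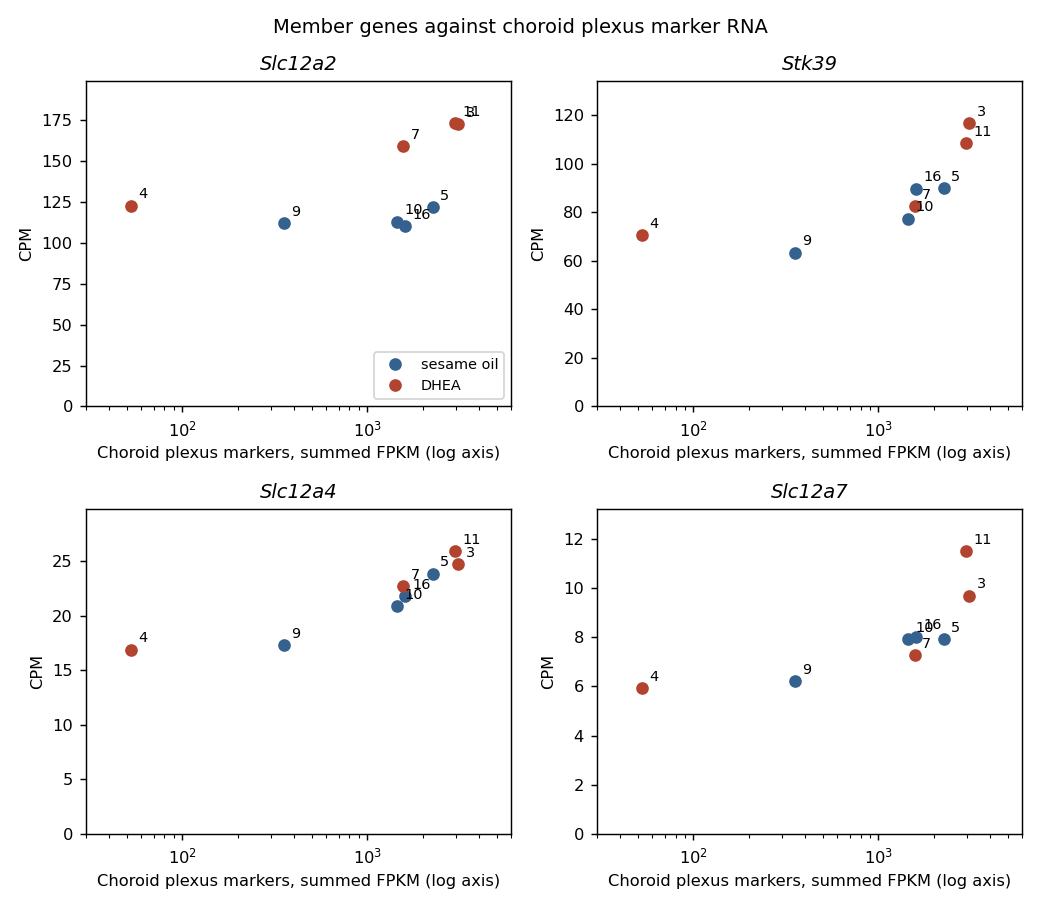
CPM of Slc12a2, Stk39, Slc12a4 and Slc12a7 (y axes, from 0) against the summed FPKM of 7 choroid plexus markers (x axis, log scale) in the 8 libraries, numbered by mouse, sesame oil in blue and DHEA in red. HipR4 and HipR9, at 52.8 and 355 summed FPKM, are the lowest points for Stk39, Slc12a4 and Slc12a7, whereas for Slc12a2 HipR4 lies level with HipR5 and the other 3 DHEA points lie above all sesame oil points.

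Oligodendrocyte markers were higher in the libraries labelled DHEA. Their summed FPKM was 1458, 1799, 1504 and 1555 with DHEA and 1192, 1454, 1185 and 999 with sesame oil, so that every DHEA library was above every sesame oil library, by a small margin over HipR9. By edgeR's unadjusted p under 0.05, 10 of 10 rose, beside 15.7% of abundant genes in either direction and 8.08% higher. Their median log2 fold change was 0.39, and after adjustment 0 of the 10 passed, as in every other marker list. Among the DHEA libraries HipR4 had the highest summed FPKM of these markers and the lowest CPM of Slc12a2. With the mean of these markers as a covariate the log2 fold change of Slc12a2 was 0.61 with a standard error of 0.13. That of Stk39 became 0.72, of Slc12a7 0.62 and of Slc12a4 0.49, with standard errors of 0.16, 0.26 and 0.17. As these markers themselves differ between the groups, this fit cannot separate oligodendrocyte RNA from the group, and its part was not tested.

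The remaining marker lists had smaller differences or little RNA. By the same unadjusted p, and beside the same 15.7% (8.08% higher and 7.6% lower), 4 of 7 astrocyte markers rose, with a median log2 fold change of 0.17 and Slc1a2 the most abundant. Of the microglial markers 3 of 6 rose, with a median of 0.18. Endothelial markers rose in 3 of 7 (Cldn5 most abundant) and those of oligodendrocyte precursors in 1 of 5 (Sox10 most abundant). Of the neuronal markers 1 of 8 fell, Rbfox3, and 7 did not pass, a share near that of all genes, as is the 1 of 5 for the precursors. Their summed FPKM was 2280 to 2361 with DHEA and 2316 to 2450 with sesame oil, with Snap25 the most abundant. Of the interneuron markers, Sst the most abundant, 0 of 6 passed. Of the anterior pituitary markers 3 of 6 fell, and their summed FPKM was at most 29.3, in HipR10, with Prl the most abundant. No marker of any list was at 0 in all 8 libraries. The part of each of these cell types in the values of the cotransporter genes was not tested beyond the covariates given.

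The libraries also differed by base composition. Across genes, the log2 CPM of a library relative to the mean of all libraries correlated with GC content at -0.113 to -0.00445 in the DHEA libraries and at 0.0558 to 0.136 in the sesame oil libraries, as a description over genes that are not independent. The 2 members lower with DHEA, Slc12a5 and Wnk2, have transcripts of 58.3% and 62.4% GC, the highest of the 9, and Slc12a2 has 44.2%. With this trend removed the log2 fold change was -0.06 for Slc12a5, -0.12 for Wnk2 and 0.41 for Slc12a2. That of Wnk3, which has the lowest GC content of the 9 (42.1%), went from 0.08 to 0.02. Slc12a4 (57.5% GC) and Slc12a7 (53.3% GC) were higher with DHEA, at 0.11 and 0.19, and at 0.14 and 0.20 with the trend removed. Of the pathway genes described below, Bdnf (0.145), Clcn3 (0.077), Lrrc8b (0.085) and Pacsin1 (-0.102) no longer passed an unadjusted p under 0.05, and Neto2 did.

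The other genes of the same families were at or below the spread. Slc12a9 had a log2 fold change of -0.13, Slc12a8 of -0.19 and Wnk4 of -0.29, with standard errors of 0.14, 0.36 and 0.22. Slc12a1 (NKCC2) and Slc12a3 (NCC), the cotransporters of the kidney tubule, had 1 to 8 and 0 to 5 counts per library, too few to show a difference. By edgeR's unadjusted p under 0.05, 0 of the 6 genes of this list passed.

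Of the adaptors of the WNK kinases and the proteins that turn them over, 2 of 16 rose, 1 fell and 13 did not pass at an unadjusted p under 0.05 in edgeR, a share near the 15.7% of abundant genes, and the median log2 fold change was 0.05. Klhl3, which hands WNK kinases to the Cul3 ubiquitin ligase, was at 83.3, 71.0, 78.5 and 83.5 CPM with DHEA and at 101, 87.8, 102 and 92.7 CPM with sesame oil. The groups did not overlap, and the log2 fold change was -0.28 (standard error 0.07, unadjusted p = 0.00105, Benjamini-Hochberg adjusted p = 0.245 in edgeR). Tsc22d3, the glucocorticoid-induced leucine zipper gene, had a log2 fold change of 0.30 (standard error 0.12, adjusted p = 0.459 in edgeR) and overlapped between the groups. Tsc22d4, whose family works with WNK kinases through the NRBP proteins, had one of 0.21 (standard error 0.09, adjusted p = 0.458 in edgeR). These calls were kept in 12 of 21 alternatives for Tsc22d3 and in 13 of 21 for Tsc22d4. Of the fits without 1 library, Tsc22d3 did not pass without HipR9, HipR10 or HipR11 (0.28, 0.21 and 0.16), nor Tsc22d4 without HipR4, HipR11 or HipR16 (0.14, 0.16 and 0.17). Ppp1cb, a catalytic subunit of the phosphatase that counteracts SPAK and OSR1, was the most abundant of the list and had a log2 fold change of 0.10 with a standard error of 0.07.

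Of the partners and regulators of KCC2, 1 of 15 rose, 2 fell and 12 did not pass, also near the 15.7% of abundant genes, and the median log2 fold change was 0.04. Bdnf, the neurotrophin known to regulate KCC2, had a log2 fold change of 0.21 (standard error 0.09, adjusted p = 0.487 in edgeR), at 49.6 ± 6.59 CPM with DHEA and 42.8 ± 3.19 CPM with sesame oil (SD, n = 4 each). The call was kept in 8 of 21 alternatives. It was lost without HipR3, HipR4, HipR5 or HipR9 (0.16, 0.15, 0.17 and 0.20), without both HipR3 and HipR4 (0.04), and in DESeq2 with a log2 fold change of 0.20. Pacsin1, a membrane-shaping protein that binds KCC2, fell by 0.14 on the log2 scale (standard error 0.06, adjusted p = 0.497 in edgeR). It did not pass without HipR5 (-0.12), without HipR11 (-0.13) or without HipR16 (-0.12), nor with the GC trend removed. The call of Pacsin1 was kept in 15 of 21 alternatives, and with the oligodendrocyte covariate its log2 fold change was -0.05. Cfl1, which encodes cofilin and was the most abundant by FPKM, had a log2 fold change of 0.04 with a standard error of 0.06.

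Among other routes for chloride and bicarbonate, 3 of 22 rose, 2 fell and 17 did not pass, beside the same 15.7%, with a median log2 fold change of 0.04. Car2, carbonic anhydrase 2, which in brain is abundant in oligodendrocytes and choroid plexus, was the most abundant of this list by FPKM. It was at 226, 243, 204 and 186 CPM with DHEA and at 189, 181, 177 and 167 CPM with sesame oil. HipR11 lay below HipR5, and the log2 fold change was 0.27 (standard error 0.08, unadjusted p = 0.00236, adjusted p = 0.275 in edgeR). Clcn3, a vesicular chloride-proton exchanger, and Lrrc8b, a subunit of volume-regulated anion channels, rose by 0.14 and 0.12 on the log2 scale (adjusted p = 0.465 and 0.531 in edgeR), with no overlap in either. The bicarbonate transporters Slc4a3 and Slc4a8 fell by 0.22 and 0.18 (adjusted p = 0.499 and 0.417 in edgeR), with overlap in both. Without HipR3 and HipR4 the log2 fold changes of Slc4a3, Slc4a8, Car2, Clcn3 and Lrrc8b were -0.02, -0.12, 0.12, 0.08 and 0.09, and none of these 5 passed. Over the 21 alternatives the call was kept in 9, 18, 19, 13 and 8, respectively.

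**Figure D5:**
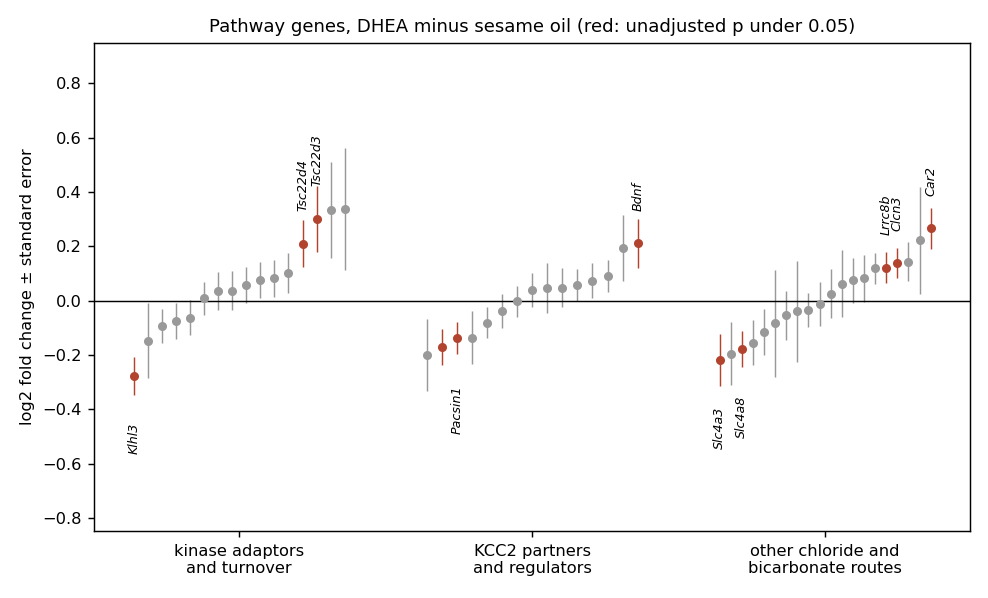
Log2 fold change, DHEA minus sesame oil (y axis, points, with bars of ± 1 standard error), of the abundant genes (counts averaging 100 or more) in 3 pathway lists, sorted within each list, from edgeR. Red points have an unadjusted p under 0.05, from Klhl3 at -0.28 to Tsc22d3 at 0.30, and lie on both sides of 0 in each list.

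Over the 4 lists together 11 of 59, or 18.6%, passed at an unadjusted p under 0.05, 6 up and 5 down, beside the 15.7% of abundant genes, and 0 had an adjusted p under 0.05. Klhl3 and Car2 were the 2 of these 11 that passed in each of the 8 fits that left out 1 library. With the oligodendrocyte markers as a covariate neither passed, and without HipR3 and HipR4 Klhl3 still did, at -0.25.

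The genes whose levels over the 8 libraries were most like those of Slc12a2 and Slc12a5 were picked by Pearson's r of log2 CPM among 12771 genes, as a description of libraries that share treatment, depth and cell makeup. For Slc12a2 these were Mxra8 (r = 0.991, Spearman's rho = 0.929), Arsg (r = 0.966, rho = 0.857) and Atp6v0e (r = 0.945, rho = 0.786), and without the 2 libraries farthest from the median, HipR3 and HipR11, r was 0.986, 0.928 and 0.919. Of the libraries left, HipR7 still stood far above the rest, at 159 CPM of Slc12a2 against 110 to 123 CPM. Mxra8 was at 9.77, 6.51, 8.46 and 9.50 CPM with DHEA and at 6.67, 6.40, 6.25 and 6.09 CPM with sesame oil, with HipR4 between the sesame oil libraries HipR5 and HipR9. For Slc12a5 they were Kcnc1 (r = 0.984, rho = 1), Abitram (r = 0.970, rho = 0.976) and Kcnk3 (r = 0.967, rho = 0.952), and without HipR4 and HipR16 r was 0.972, 0.978 and 0.873. Kcnc1 and Kcnk3 encode potassium channels, and the libraries stood in the same order for Kcnc1 as for Slc12a5.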

How the data were processed

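Hippocampal RNA of 8 female mice, 4 labelled DHEA and 4 labelled sesame oil, was sequenced, 1 library per mouse. The authors deposited raw counts per gene for 29442 symbols, and FPKM values made from them. The submitters' processing notes name fastp, HISAT2, HTSeq and GRCm39. Versions and strand setting are not given in the sources used here. Reads shared with overlapping or antisense genes can therefore not be told apart. FPKM equalled counts over the total and 1 length per gene within 0.1% in 25234 of 25234 genes. Counts were scaled by TMM, also for CPM, and tested with edgeR 4.0.16 (R 4.3.3) by its quasi-likelihood test (prior count 0.125), using every gene with any count (27612 genes), with Benjamini-Hochberg adjustment over all of them. Steps were tested on simulated data. DESeq2 1.42.0 and limma 3.58.1 on log2(FPKM + 1) were alternatives. GC content was that of the longest GENCODE transcript, found for 92.7% of the genes whose counts averaged 10 or more. The labels give no batch. Members and lists were chosen with earlier results of these data known. Named were the 9 members, the related family genes, in each pathway list the genes with an unadjusted p under 0.05 and the most abundant gene, in each marker list the most abundant gene, and the 3 genes most like Slc12a2 and Slc12a5. Some genes that this rule covers are not reported here.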

Additional observations from a re-analysis of the deposited data

Results flagged for a closer look

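In each group of 4 libraries the distance of the highest or the lowest library from its neighbour was compared with the range of the group, and 2 of the 76 groups examined had a library apart, where chance gives about 3.8. For Slc12a7 in the sesame oil libraries, HipR9 was at 6.23 CPM and the others at 7.93 to 8.03 CPM, so that the gap was 0.947 of the range, and HipR9 was also the sesame oil library with the least choroid plexus RNA. For the summed FPKM of the anterior pituitary markers in the DHEA libraries, HipR4 was at 0.882 and the others at 0.801 to 0.814, a gap of 0.841 of a narrow range.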

How the results depend on the processing

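The log2 fold change of Slc12a2 had the same direction in all 21 alternatives, and the log2 ratio of Slc12a2 to Slc12a5 differed by 0.46 to 0.62 over 12. In edgeR 2571 of all genes tested had an unadjusted p under 0.05 (1786 to 3667 with 1 library left out), and 1149 with the oligodendrocyte covariate. The number was 2598 with RLE scaling, 2589 with robust moderation, 1824 without HipR4 and HipR9 and 2982 with the choroid plexus covariate. The member counts below stand beside these numbers. The adjusted count of 0 became 153 with DESeq2, 4 with robust moderation, 1 without HipR3 and HipR4, 12 without HipR4 and HipR9, 77 with the choroid plexus covariate and 0 to 93 with 1 library left out (93 without HipR7). Of the 9 members, 1 passed unadjusted, against 2 with RLE scaling, robust moderation or without HipR4 and HipR9. The count was 3 with the choroid plexus covariate, 4 with the oligodendrocyte covariate and 1 to 3 with 1 library left out. Slc12a2 passed in each of these fits. Those added were Wnk2 with RLE scaling or robust moderation, Stk39 without HipR4 and HipR9, and Wnk2 and Stk39 with the choroid plexus covariate. Under the oligodendrocyte covariate they were Slc12a4, Slc12a7 and Stk39. With 1 library left out they were Oxsr1 without HipR3, Stk39 without HipR4, Wnk2 and Stk39 without HipR7 and Wnk2 without HipR11. Over all genes tested, these fits gave 1938, 1983, 3667 and 3236, respectively. The adjusted 0 of the 9 became 1, Slc12a2, with DESeq2, without HipR3 and HipR4, without HipR4 and HipR9 and with the choroid plexus covariate, and was 0 to 1 with 1 library left out (1 without HipR4 and 1 without HipR7). The 11 pathway genes became 5 with the oligodendrocyte covariate and 6 to 19 with 1 library left out (19 without HipR7, 7 without HipR3, 6 without HipR5 and 6 without HipR16). The covariates and the fit without HipR4 and HipR9 were chosen after seeing the data, and where values moved the cause was not tested. Under the oligodendrocyte covariate, which itself differs between the groups, the log2 fold changes of Slc12a5, Wnk1 and Oxsr1 changed sign, to 0.01, -0.02 and -0.06, and that of Wnk3 was -0.0034 without HipR4 and HipR9. Reversed were Ppp1cb (-0.0509), Cfl1 (-0.0592), Slc12a9 (0.11) and Wnk4 (0.0252) without HipR3 and HipR4, Cfl1 (-0.0027) without HipR4 and HipR9, Slc12a1 without HipR11 (-0.13, to 0.73 with another library left out) and Slc12a8 without HipR9 (0.0351, to -0.32), none of which passed with all 8 libraries in edgeR. Ppp1cb and Slc12a9 passed without HipR7 and Wnk4 without HipR11. No paired analysis was possible because the groups share no replicate numbers. Slc12a1 and Slc12a3 are limited by depth.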
